A study of Mus musculus with 6 samples.

Results

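Mouse chromosome 13 carries a run of zinc finger genes. A list of 9 genes of that chromosome, 8 zinc finger genes of the run and 1 long noncoding RNA that lies outside it, was followed in brown adipose tissue (BAT) of mice with and without miR-22. The 9 are Zfp874a, Zfp874b, Gm10037, Zfp455, 1810034E14Rik, Zfp458, Rsl1, Zfp595 and Zfp738. The probes of the array were matched to 23462 genes in all, 8 of these 9 among them. BAT of male mice was compared between 3 wild type (WT) mice and 3 mice with a constitutive knockout (KO) of miR-22, obtained by the authors from the Jackson Laboratory, at 8 weeks of age. Each mouse was measured on 1 Agilent mouse gene expression array with 1 dye. The knockout is present in every tissue of these mice, so BAT was not the only organ without miR-22. The strain of the mice is not given in the sources used here.

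KRAB zinc finger proteins bind DNA through a row of zinc fingers, each of which reads a few bases, and through the KRAB domain they call in the corepressor Trim28, which brings the histone methyltransferase Setdb1 and heterochromatin proteins, so that nearby chromatin is silenced. Their genes lie in runs of close copies that arose by duplication and that differ between mouse strains and species. Rsl1, short for regulator of sex-limitation, is the member of the chromosome 13 run best known in mice. In liver, Rsl1 and relatives at its locus keep down genes that males express more than females. Among these genes are the sex-limited complement gene C4a, major urinary protein (Mup) genes and Cyp2d9. Several neighbours carry the second name Rslcan, for candidates of that locus: Zfp874a is Rslcan15, Zfp874b is Rslcan16, Gm10037 is Rslcan24, Zfp595 is Rslcan23, Zfp455 is Rslcan-10 and Zfp458 is Rslcan-7.

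The 9 genes were chosen by their measured values on these same arrays, so their differences between KO and WT are given as a description, with no test. Of the 9, 8 had at least 1 probe, Zfp874a had 2, and no probe was matched to Zfp738, so 9 probes stand for 8 genes. All values below are log2 of the background-subtracted intensity over the 75th percentile of its array, and a difference is the mean of KO minus the mean of WT on that scale. A value of 0 is thus the brightness of the 75th percentile spot. Of the 9 probes, 7 could be compared as all probes of the array were, which asked for a signal well above background on 3 or more arrays and for 2 or more spots per group free of the scanner software's marks for uneven or outlying spots. The probes of Zfp874a and Gm10037 passed this filter through the KO arrays alone. The probes of 1810034E14Rik and Zfp595 did not pass it and are given with their marked spots.

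A mature sequence that the KO mice lack, and the start regions of the genes that differed most, are shown first. Matches of the miR-22 seed in the transcripts of the listed genes were not searched. The mature miR-22-3p of RefSeq (GRCm38.p6, chr11:75463772-75463793, plus strand) is printed with its seed, bases 2 to 8, in capitals.
mmu-miR-22-3p: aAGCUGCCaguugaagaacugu

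The promoters below are RefSeq's on GRCm38.p6, from 250 bases before to 50 after the annotated start, 5′ to 3′ in the direction of the gene. Zfp874a and Gm10037 are shown because they were measurable in KO only, Zfp874b because it is the nearest relative of Zfp874a, and Zfp455 because it is the third zinc finger gene that was higher on every KO array. Capitals mark the stretches of at least 10 bases that the promoters of Zfp874a, Zfp874b and Gm10037 share letter for letter; Gm10037 has a second annotated start without them, which is not shown.
Zfp874a, chr13:67451575-67451874, minus strand: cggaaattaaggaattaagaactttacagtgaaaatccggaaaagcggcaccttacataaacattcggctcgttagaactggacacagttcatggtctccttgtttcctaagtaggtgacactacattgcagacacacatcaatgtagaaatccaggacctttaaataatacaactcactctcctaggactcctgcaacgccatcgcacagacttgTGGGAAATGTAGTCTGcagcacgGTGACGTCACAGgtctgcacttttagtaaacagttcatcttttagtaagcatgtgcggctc
Zfp874b, chr13:67484204-67484503, minus strand: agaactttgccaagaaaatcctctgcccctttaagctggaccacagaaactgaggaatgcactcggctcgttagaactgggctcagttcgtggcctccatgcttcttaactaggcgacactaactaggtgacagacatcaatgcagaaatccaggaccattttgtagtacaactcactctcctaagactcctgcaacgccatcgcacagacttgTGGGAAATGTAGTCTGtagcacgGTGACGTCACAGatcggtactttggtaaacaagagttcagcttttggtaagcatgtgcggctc
Gm10037, chr13:67830856-67831155, plus strand: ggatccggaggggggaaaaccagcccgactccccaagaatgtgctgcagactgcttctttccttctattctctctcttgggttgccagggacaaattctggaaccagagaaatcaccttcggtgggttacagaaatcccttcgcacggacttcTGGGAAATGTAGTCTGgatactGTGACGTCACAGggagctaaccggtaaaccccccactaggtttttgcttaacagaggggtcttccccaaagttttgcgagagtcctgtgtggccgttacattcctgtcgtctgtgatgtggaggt
Zfp455, chr13:67194256-67194555, plus strand: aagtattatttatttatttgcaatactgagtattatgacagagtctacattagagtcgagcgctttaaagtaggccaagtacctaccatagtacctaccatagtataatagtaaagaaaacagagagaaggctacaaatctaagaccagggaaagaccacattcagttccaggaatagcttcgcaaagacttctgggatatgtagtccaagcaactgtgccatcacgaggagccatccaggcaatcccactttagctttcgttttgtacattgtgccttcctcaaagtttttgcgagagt

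Zfp874a and Zfp874b had the most alike promoters of the listed genes, with 241 identical bases of 280 aligned (86.1%). The promoter of Gm10037 had 161 identical bases of 217 aligned with that of Zfp874a (74.2%). Apart from Zfp874b, the other listed genes gave 70.7% (1810034E14Rik) to 77.5% (Zfp595) with Zfp874a, so Gm10037 lay within their range. Exactly 2 stretches were shared by all 3: TGGGAAATGTAGTCTG, of 16 bases, and GTGACGTCACAG, of 12 bases, which holds TGACGTCA, the letters of a cAMP response element. In Zfp874a the first began 34 bases and the second 11 bases before the start, in Zfp874b 36 and 13 bases, and in Gm10037 97 and 75 bases. Searched on both strands, the first stretch was in 10 of 32851 promoters of the RefSeq table (0.0304%) and the second in 25 (0.0761%). Of these, 4 and 5 were among the 41 promoters of the genes of the chromosome 13 run that have a probe. The 3 promoters that defined the stretches are counted in the 4 and in the 5, so nothing is read from these counts.

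Shorter letters were looked for in the promoters of the listed genes and over all promoters. They were not counted apart for the unlisted genes of the run. ATGTAGTC, a part of the first stretch, was in the promoters of Zfp874a, Zfp874b, Gm10037, Zfp455, Zfp458, Rsl1 and Zfp595 but not of Zfp738 or 1810034E14Rik, against 0.865% of all promoters. TGACGTCA, which reads the same on both strands, was in those of Zfp874a, Zfp874b, Gm10037 and Zfp595, against 1.79% of all. TATAAA was in none but the second start of Gm10037 (13.6% of all promoters), CCAAT was in Rsl1 and Zfp738 (37.4% of all), and GGGCGG was in Rsl1 alone (35.7% of all). Such matches are descriptions of letters. Genes whose KO and WT levels overlapped, such as Zfp595, carried them as well.

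Before the members, the arrays and labels were checked. The arrays had 53.9% to 64.9% of 56605 probes well above background, KO replicate 1 being the lowest, and its lowest detectable value (-4.60) lay above those of the other arrays (-6.26 to -5.75). All 7 brown adipocyte markers were above background on every array, with a mean level between 2.64 and 3.47. The mean of 10 skeletal muscle genes ran from -5.19 in WT replicate 3 to 4.01 in KO replicate 2, while the other marker lists moved by no more than 0.93 over the arrays; the part of muscle in any difference was not tested. Replicates 1 and 2 of WT lay in the first row of the slide and WT replicate 3 with all KO arrays in the second, so the differences of the listed genes, and of others where named, are also given within the second row, where they rest on 1 WT mouse. The array has no probe for mature miR-22. Its host transcript Mir22hg read 1.20, 1.69 and 1.22 in WT and 2.02, 2.11 and 2.23 in KO, a difference of 0.75 (SE 0.19, limma adjusted p = 0.136) and of 0.90 within the second row, so the labels could not be checked by the loss of a transcript.

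Zfp874a, a predicted KRAB zinc finger gene, showed the widest gap. Its first probe read -8.59, -8.38 and -8.05 in WT, where it was not well above background on any array, and -2.09, -2.14 and -2.12 in KO, where it was well above background on all 3. In raw intensity this is 5.16, 4.31 and 6.05 against 596, 596 and 368. The KO values were tight (SD 0.03, n = 3), and the groups were far apart. In a tissue sample, more cells that carry a transcript and more of it per cell cannot be told apart. Because the WT arrays give only an upper limit, the difference is a bound: KO was at least 15.2-fold above WT, with WT set to the lowest detectable level of its arrays. That level is the lowest value well above background on an array, and the bound is approximate. A spot not well above background can read higher, as Zfp874b did in WT replicate 2 (-6.06, where the level was -6.13). The measured means differed by 6.22 on the log2 scale, and by 5.93 within the second row of the slide. The bound holds for the scanner software's background subtraction: with normexp correction, which adds an offset of 50 to every spot and so draws dim and bright values together, the measured means were 6.04-fold apart.

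The second probe of Zfp874a gave a like picture. It read -8.59, -8.43 and -8.05 in WT, not well above background on any array, and -2.79, -3.01 and -2.75 in KO. This is at least 9.17-fold, with measured means 5.51 apart, or 5.20 within the second row, and 4.19-fold apart with normexp. Both probes thus separated the groups without overlap. Their sequences are not in the files used here, so how far either can also bind Zfp874b or other relatives could not be examined.

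Gm10037, or Rslcan24, is the listed gene of the run farthest from Rsl1. It read -6.47, -6.15 and -6.17 in WT, again not well above background on any array, and -3.01, -2.97 and -3.09 in KO, well above background on all 3. KO was at least 8.13-fold above WT, with measured means 3.24 apart and 3.14 apart within the second row, and 3.22-fold apart with normexp. The groups did not overlap.

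Over the whole array, 14 of 56605 probes (0.0247%) were well above background on all 3 KO arrays and on no WT array, and 121 were so in WT and not in KO. The 2 probes of Zfp874a and that of Gm10037 were the top 3 of the 14 by bound. The next were a probe matched to no gene, at 6.90-fold, and the Clec18a probe, at 3.81-fold, so 4 of the 14 had a bound of at least 4-fold against 1 of the 121. KO replicate 1 had the highest detection limit, and its part in the larger number on the WT side was not tested. Since the genes were chosen from this same contrast, nothing is read from their place.

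Zfp455, which lies between Rsl1 and Zfp458, was measurable in both genotypes. It read -3.63, -3.28 and -3.28 in WT and -2.22, -2.33 and -2.27 in KO. Every KO array was above every WT array, with means 1.13 apart (2.18-fold; SD 0.20 in WT and 0.06 in KO, n = 3 each) and 1.01 apart within the second row. No spot was marked.

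1810034E14Rik is a long noncoding RNA that the annotation places 107 genes away from Rsl1, outside the zinc finger run. It read -3.17, -3.80 and -3.40 in WT and -1.91, -1.84 and -1.82 in KO. The KO values of replicates 1 and 2 come from marked spots, so it was left out of the comparison of all probes. With the marked spots kept, the means were 1.60 apart without overlap, and 1.54 apart within the second row.

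Zfp874b, which lies close to Zfp874a and has the promoter most like its own, had overlapping groups. It read -1.82, -6.06 and -1.95 in WT and -1.89, -0.80 and -2.11 in KO, the first KO value from a marked spot. WT replicate 2, which was not well above background there, stood alone at the low end. Its difference of 1.82 rests on that mouse: without WT replicate 2 it was 0.43, and within the second row, with the marked spot kept, 0.35.

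The remaining 3 measured genes had differences under 0.5 log2 units in size. Rsl1 itself read -1.75, -1.70 and -1.92 in WT and -2.04, -2.07 and -2.02 in KO, with WT replicate 3 and KO replicate 1 marked. Every KO array was below every WT array, by 0.32 in the means without the marked spots, 0.25 with them, and 0.13 within the second row. Zfp458 read -1.45, -1.23 and -1.43 in WT and -1.95, -1.60 and -1.43 in KO, a difference of -0.29 (-0.23 within the second row) with overlapping groups. Zfp595 read -0.16, -0.15 and 0.02 in WT and -0.03, -0.27 and -0.14 in KO, with 3 marked spots and a difference of -0.05 (-0.17 within the second row), so the groups overlapped.

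**Figure D1:**
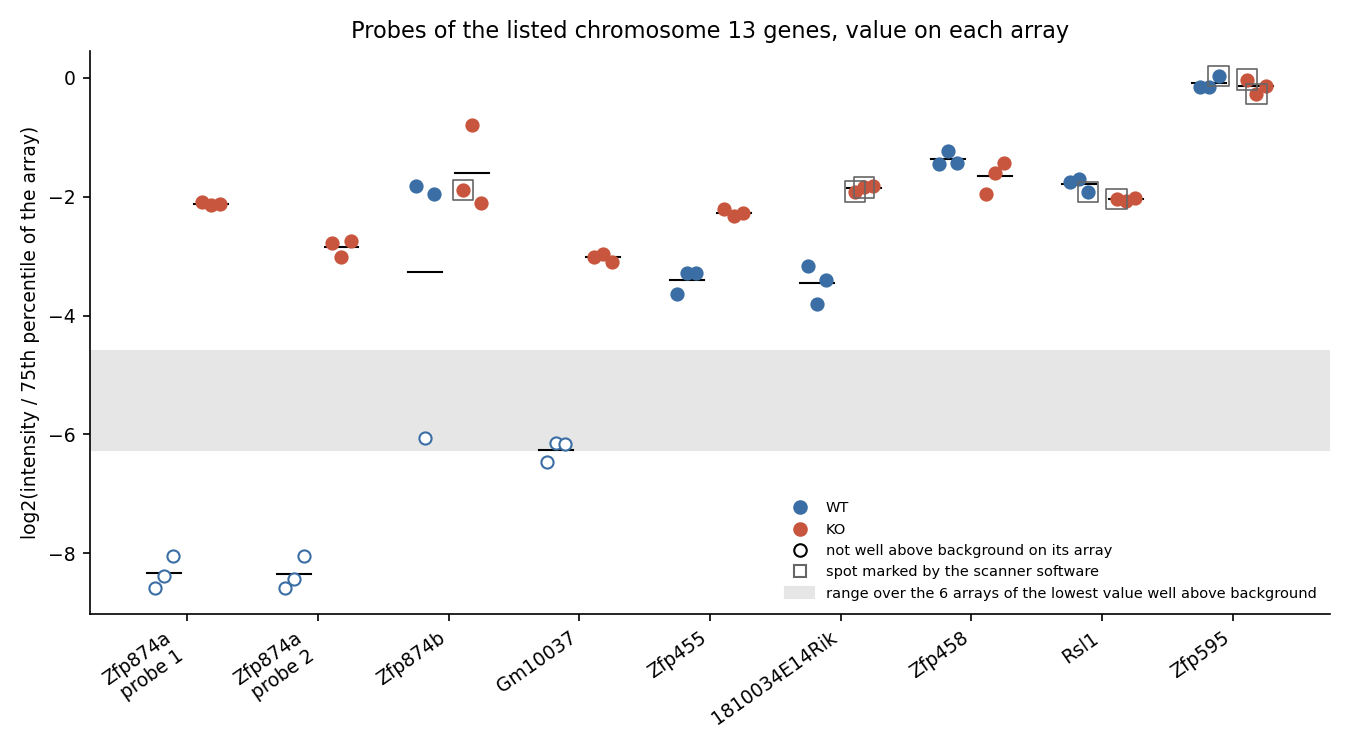
Value of each of the 9 probes of the listed genes on each array (points; WT blue, KO red) with the group means (lines), as log2 of intensity over the 75th percentile of the array. Open points are not well above background and squares are spots marked by the scanner software, and the grey band spans the lowest detectable value of the arrays. The 3 KO values of Zfp874a probe 1 sit between -2.14 and -2.09 while its 3 WT values sit below -8, and the single low WT point of Zfp874b is at -6.06.

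Counted together, 4 of the 7 comparable probes (2 of Zfp874a, and those of Gm10037 and Zfp455) were higher in KO without overlap, where 13.8% of 31238 probes over the array were. The Rsl1 probe was lower without overlap, where 13.8% of all probes were too. The genes were chosen on this contrast, so these counts carry no test and nothing is read from them.

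The genes of the run that were not chosen are given as a description. The listed genes were taken from the run by this same contrast, so small differences among the rest are partly set by that choice. The annotation places 34 genes from Rsl1 to Gm10037, and 21 of them are named Zfp. With 15 genes on either side the run has 64 genes, of which 41 had a probe and 28 a comparable one, 6 of these 28 being listed genes. Of the other 14 comparable genes between Rsl1 and Gm10037, only Zfp953 passed the unadjusted threshold of 0.05 on the brightest probe, where 9.23% of 14711 genes over the array were higher and 7.39% lower. None of the 14 passed after Benjamini-Hochberg adjustment over all probes, where 0.102% of all genes did. Their differences ran from -0.36 to 0.50 with a median of -0.01, against a median of -0.03 over all genes. Their median absolute difference was 0.165, below the 0.255 of all genes.

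Zfp953, the unlisted gene with the smallest p inside the run, read -3.55, -3.38 and -3.31 in WT and -3.03, -2.85 and -2.85 in KO, a difference of 0.50 (SE 0.15, limma adjusted p = 0.185). The groups did not overlap, and the difference within the second row was 0.40. With marked spots left out, Zfp273 (0.24) and 9430065F17Rik (0.32) also lay higher without overlap and Zfp459 (-0.36) lower, and none of these passed the unadjusted threshold. A second, dimmer probe of 9430065F17Rik gave -0.63, opposite to the brighter one. The probes of Zfp58, next to Zfp874b, also disagreed, at -0.01 on the brighter and 0.64 on the dimmer. Both dimmer probes passed the unadjusted threshold but not the adjusted one (limma adjusted p = 0.237 for 9430065F17Rik and 0.213 for Zfp58).

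No unlisted probe between Rsl1 and Gm10037 was well above background in one genotype on all 3 arrays and in the other on none. Over the whole array only 14 of 56605 probes were so in KO and 121 in WT, so nothing is read from this. The nearest comparable unlisted genes on either side of Zfp874a and Zfp874b were Zfp459, with a difference of -0.36, and Zfp58, with -0.01 on its brighter probe. 4930525G20Rik, near Gm10037, is the unlisted gene of the run whose promoter holds both shared stretches, and its brighter probe had a difference of -0.00 (SE 0.24). F630042J09Rik holds the second stretch and was not well above background on any array. Of the 8 comparable flanking genes, Zfp712 was 0.49 higher (SE 0.15, limma adjusted p = 0.181) and Zfp759 0.51 lower (a difference of -0.51, SE 0.18, limma adjusted p = 0.225).

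**Figure D2:**
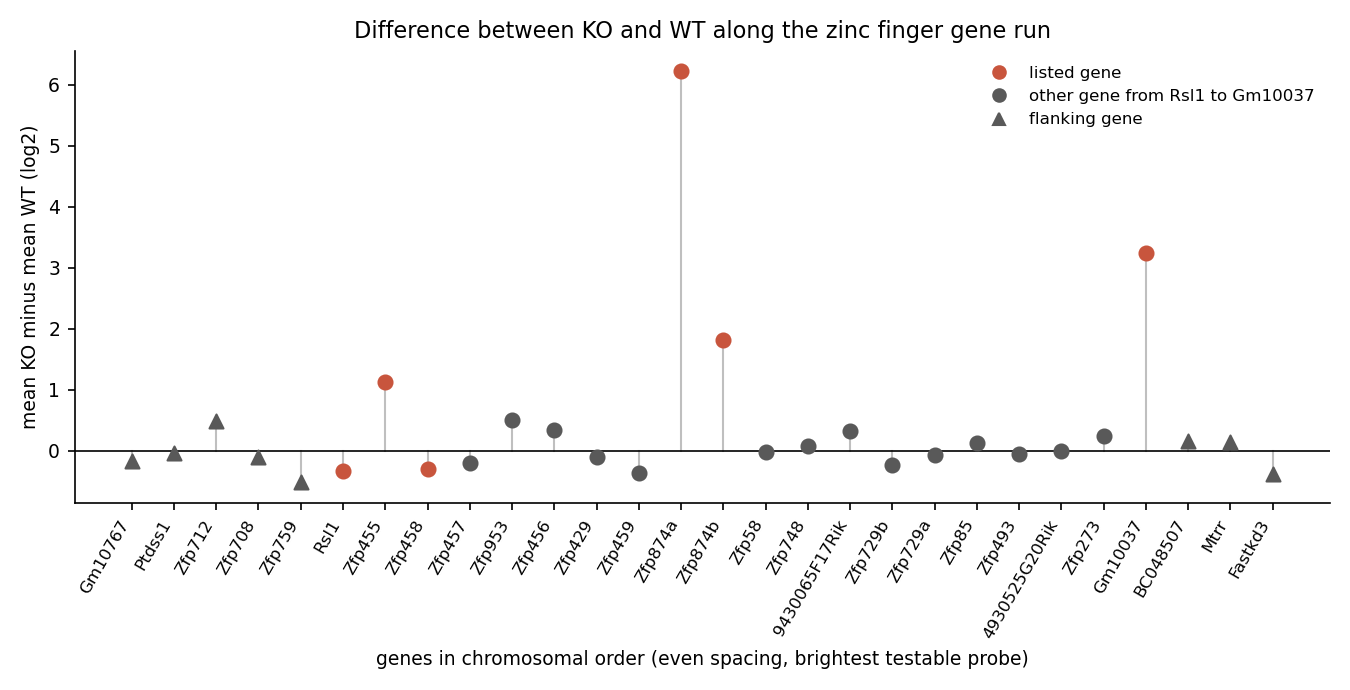
Mean KO minus mean WT on the log2 scale for the 28 genes of the run with a comparable probe, evenly spaced in chromosomal order (red, listed genes; grey circles, other genes from Rsl1 to Gm10037; triangles, flanking genes). Zfp874a at 6.22 and Gm10037 at 3.24 stand among unlisted neighbours that lie between -0.51 and 0.50; the values of these listed genes are measured means whose WT side was not well above background.

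Zinc finger genes elsewhere were compared to see where the listed ones stand in the family. Of 395 Zfp-named genes outside the run, 311 were tested, 23 were higher and 11 lower at an unadjusted p under the threshold, and none passed limma's adjusted threshold in either direction. That is 7.40% higher and 3.54% lower, against the 9.23% and 7.39% of all genes; with quantile scaling the split turned to 14 higher and 21 lower. Over all probes, too, the larger number turned from higher to lower with that scaling. Their median difference was -0.04, beside -0.03 for all genes. The genes with the smallest p upward were Zfp57, a KRAB protein that keeps imprinted genes methylated (1.13, limma adjusted p = 0.0799), Zfp248 (0.75), Zfp334 (0.72), Zfp82 (0.73) and Zfp275 (0.74). Those downward were Zfp185, a LIM domain protein rather than a DNA-binding zinc finger factor (-1.30, limma adjusted p = 0.0787), Zfp974 (-0.85), Zfp2 (-0.73), Zfp46 (-0.57) and Zfp260 (-0.57). With the slide row as a block Zfp82, Zfp275, Zfp974, Zfp46 and Zfp260 no longer passed the unadjusted threshold. With normexp Zfp248 (0.22) and Zfp334 (0.19) did not pass it, and Zfp57 differed by 0.46. The WT means of Zfp248 (-5.02) and Zfp334 (-4.96) lay near the lower end of what the arrays detect.

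Zfp57 read -5.28, -4.90 and -4.90 in WT and -4.02, -4.00 and -3.68 in KO, without overlap, near the lower end of what the arrays detect. Zfp185 read -0.45, 0.08 and 0.02 in WT and -1.48, -1.62 and -1.16 in KO, also without overlap.

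The corepressor genes through which KRAB zinc finger proteins act were measured next. Of 20 genes, 18 were tested, 3 were higher and 1 was lower at the unadjusted threshold, and none passed the adjusted one. That is 16.7% higher and 5.56% lower, from 18 genes, beside the 9.23% and 7.39% of all genes. Their median difference was 0.14. Over the alternatives it ran from 0.02 with marked spots kept to 0.20 with the mean of a gene's probes. Trim28, the central corepressor, read 1.24, 1.34 and 1.25 in WT and 1.18, 0.95 and 1.25 in KO, a difference of -0.15 (SE 0.15, limma adjusted p = 0.645). Its groups overlapped. Setdb1 had too few unmarked spots to be tested.

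The DNA methyltransferase Dnmt3b differed by 0.71 (SE 0.20, limma adjusted p = 0.161), the maintenance methyltransferase Dnmt1 by 0.52 (SE 0.16, limma adjusted p = 0.191) and Uhrf1, which brings Dnmt1 to newly copied DNA, by 0.58 (SE 0.22, limma adjusted p = 0.290). Dnmt1 and Dnmt3b did not overlap between the groups, while Uhrf1 overlapped once its marked spots were counted and then differed by 0.29. Chd3, a chromatin remodeler of the NuRD complex, was the lower one, at -0.67 (SE 0.20, limma adjusted p = 0.178). Dnmt3a, another DNA methyltransferase, differed by -0.15 (limma adjusted p = 0.762). Within the second row of the slide the differences were 0.49 (Dnmt3b), 0.73 (Dnmt1), 0.04 (Uhrf1, marked spots kept) and -0.48 (Chd3). With the row as a block Dnmt3b and Chd3 no longer passed the unadjusted threshold, Dnmt1 did, and Uhrf1 could not be fitted. Uhrf1 did not pass it with marked spots kept, without the filter or by the methods' t-test, and Dnmt1 did not with normexp or without WT replicate 3.

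A list of Rsl target genes was then looked up in BAT. It was taken by symbol: C4a, C4b, Cyp2d9 and every gene named Mup with a number. Whether each of them is a target of the Rsl locus was not examined. Of 25, 14 had a probe and 13 were tested. One, Mup21, passed the unadjusted threshold upward (7.69%, beside 9.23% of all genes) and none passed the adjusted one. Differences were above 0 in 12 of the 13, with a median of 0.57. The median rested on single mice: it was -0.07 without WT replicate 1 and 0.02 without KO replicate 3. Mup genes are near-identical copies whose transcripts may bind each other's probes, so the 12 are not separate readings.

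Mup21, a major urinary protein gene, read -3.80, -2.72 and -3.25 in WT and -2.46, -1.52 and -1.44 in KO, a difference of 1.45 (SE 0.37, limma adjusted p = 0.139), 1.44 within the second row. Its other, brighter probe, with 3 marked spots, overlapped between the groups and differed by 0.41. C4a, the sex-limited protein, read -4.14, -5.22 and -3.99 in WT and -4.29, -4.07 and -3.64 in KO, a difference of 0.45 (SE 0.35, limma adjusted p = 0.551) that was -0.01 within the second row. Its near copy C4b differed by 0.08 (SE 0.24, limma adjusted p = 0.888) on 1 probe and by -0.09 (SE 0.23, limma adjusted p = 0.862) on a brighter one. Cyp2d9 was not well above background on any array.

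Among the other Mup probes, Mup5 differed by 0.95 (SE 0.57, limma adjusted p = 0.444), and Mup1, Mup2, Mup3, Mup4, Mup6, Mup17, Mup18, Mup19 and Mup20 had limma adjusted p of at least 0.427 on every probe. WT replicate 1 was the lowest of the 6 arrays for 12 of the 14 Mup probes.

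**Figure D3:**
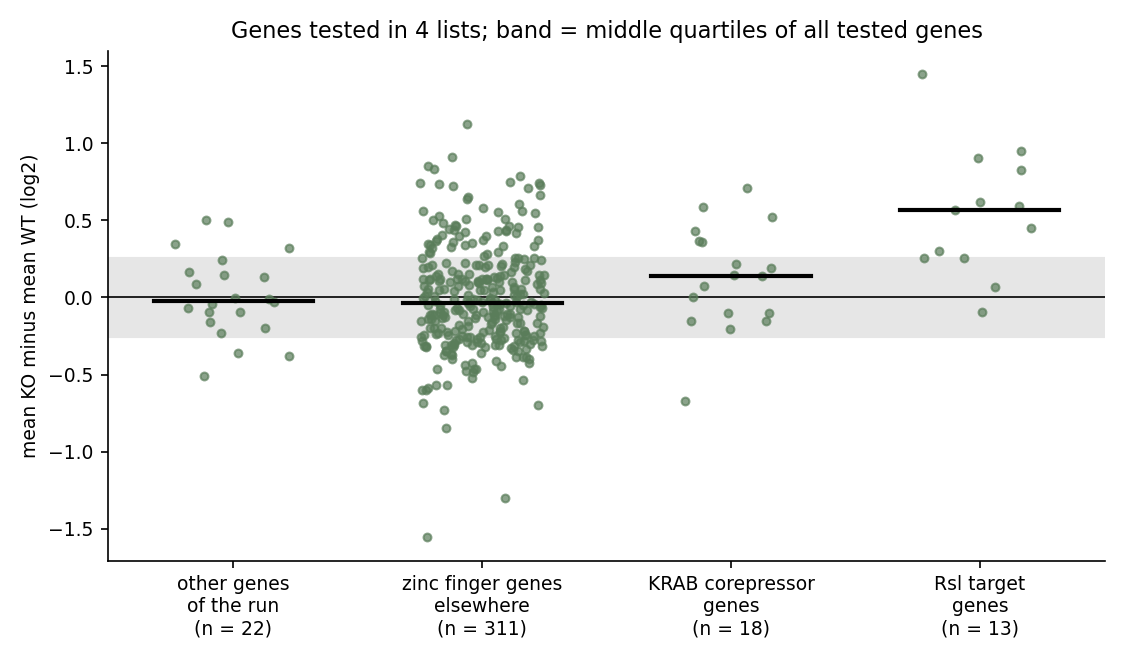
Mean KO minus mean WT on the log2 scale for each tested gene of 4 lists (points) with the list's median (bar); the grey band is the middle quartiles of all 14711 genes tested, from -0.25 to 0.26. The medians are -0.02 for the 22 unlisted genes of the run, -0.04 for 311 zinc finger genes elsewhere and 0.14 for 18 corepressor genes. The median is 0.57 for 13 genes of the Rsl target list, which was taken by symbol.

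The profile of the first Zfp874a probe over the 6 arrays was compared with that of the 25851 probes that had no marked spot and passed the filter. The second Zfp874a probe followed it at a Pearson's r of 0.9996, Gm10037 at 0.9988 and Zfp455 at 0.985, while Zfp458 gave -0.65. The 5 unlisted genes most like it were Xaf1 (r = 0.9986), an apoptosis-related gene induced by interferon, Luc7l2 (0.9978), a splicing factor, Cdkn2aipnl (0.9978), F2r (0.9970), the thrombin receptor, and Arhgap27 (0.9951), a GTPase-activating protein. Since the 6 points fall into 2 genotypes, such an r says mainly that a probe was tight within each group and differed between them, and it carries no test. The WT values of the Zfp874a probe are not well above background, so the order of such r values is not read.

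Xaf1, on chromosome 11, read -4.55, -4.58 and -4.51 in WT and between 0.96 and 1.16 in KO, well above background on all 6 arrays, a difference of 5.59. The other 4 differed by 1.12 (Luc7l2, chromosome 6), 1.13 (Cdkn2aipnl, chromosome 11), 0.69 (F2r, chromosome 13) and 1.72 (Arhgap27, chromosome 11). Every KO array was above every WT array in all 5, where 13.8% of probes over the array were so. Their choice by likeness to the Zfp874a probe largely sets this, so nothing is read from it.

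**Figure D4:**
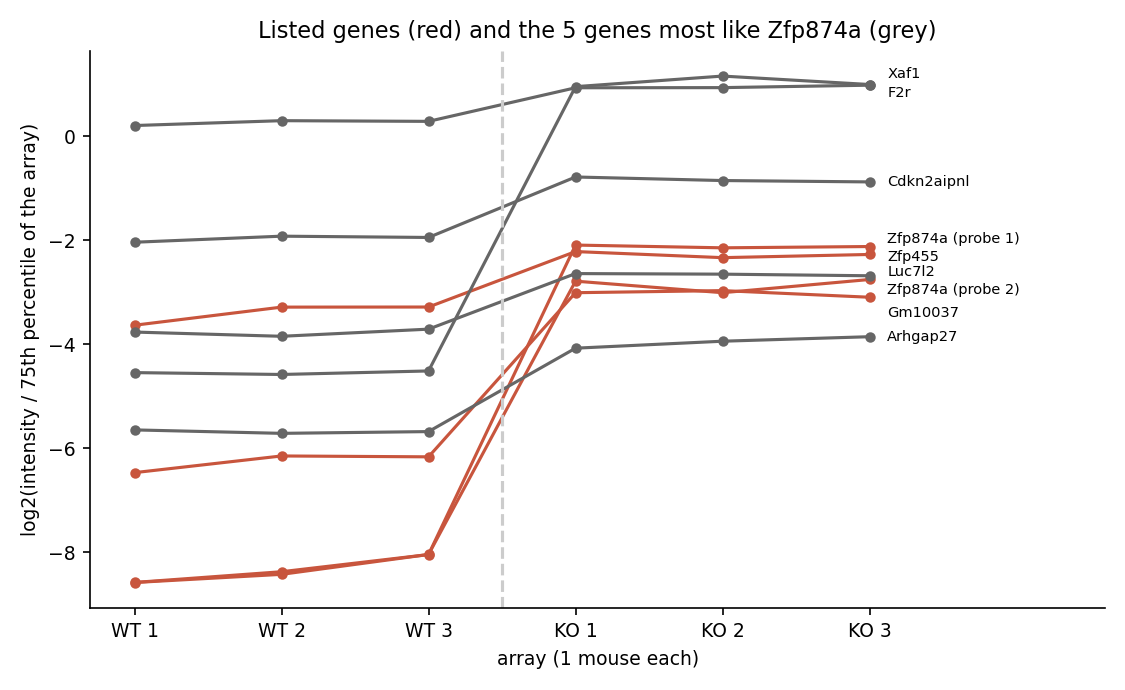
Values on the 6 arrays, as log2 of intensity over the 75th percentile of the array, of Zfp874a, Gm10037 and Zfp455 (red) and of the 5 unlisted genes whose profile was most like that of Zfp874a (grey); lines join the arrays of 1 probe and the dashed line parts WT from KO. Each of the 9 lines is nearly flat within a genotype and is higher in KO, by 5.59 for Xaf1 and 0.69 for F2r; the WT values of Zfp874a and Gm10037 were not well above background, so only a lower bound of their step is known.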

How the data were processed

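Intensities of 6 arrays, 1 mouse each, were used, grouped by genotype labels. The authors deposited intensity values from Agilent Feature Extraction (10.7 in the submitters' processing notes, 11.5.1.1 in the file headers), background-subtracted and unscaled, and a table of log2 values for 27497 probes whose processing is not stated and whose columns share a maximum (17.4), used as an alternative. Signals were divided by each array's 75th percentile and taken as log2, marked spots were left out, and probes well above background on at least 3 arrays with 2 unmarked values per group were fitted with lmFit and eBayes (limma 3.58.1, R 4.3.3), two-sided, adjusted with Benjamini-Hochberg over 31238 probes. The brightest probe stood for a gene. The 3 arrays per group limit the precision, which each SE gives. Probes were matched to genes through RefSeq accessions (GRCm38.p6); that annotation gave gene order only, since the array files use another build. Promoters were aligned with Biopython.

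The 9 genes, the gene lists and the markers were chosen with earlier results of these data known. Named were all listed genes and their probes, run genes past the adjusted threshold or lying between the listed genes, the 5 zinc finger genes with the smallest p in each direction, corepressors past the unadjusted threshold with Trim28 and Setdb1, targets above background, Mir22hg and the 5 likest genes. The scripts' fits were tested on simulated data. Alternatives were quantile, median and normexp (offset 50) scaling, the deposited log2 values, other filters, marked spots kept, the slide row as a block, the methods' t-test, another eBayes and leaving out each mouse. The SAM program of the methods permutes samples and was not run. The study describes the controls as littermates, but no label ties a WT to a KO mouse. Each limma p-value sets a difference against the spread between mice of a group, which eBayes moderates over all tested probes.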

Additional observations from a re-analysis of the deposited data

How the results depend on the processing

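No paired analysis was possible because replicate numbers here only follow the order of the samples and no label ties a WT mouse to a KO mouse. Higher in KO, Zfp874a, Gm10037 and Zfp455 kept their direction in every alternative that could be fitted. They were chosen on this contrast in the same arrays, so nothing is read from that. Leaving out a KO mouse, or asking for all 6 arrays, left Zfp874a and Gm10037 too few arrays above background. With normexp, which compresses dim values, the differences were 2.60 and 2.07 for Zfp874a, 1.69 for Gm10037 and 0.81 for Zfp455. Listed probes lower without overlap numbered 2 instead of 1 with quantile scaling or the deposited table, and probes higher numbered 1 instead of 4 where all 6 arrays had to be above background (3 probes left); leaving out a mouse gave 1 to 4 higher and 0 to 1 lower.

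Over all probes, 3031 were higher, 2104 lower and 34 past the adjusted threshold. The majority turned to lower with quantile scaling (2008 higher, 3020 lower, 14 adjusted), normexp (1662, 2323 and 65) and the deposited log2 values (1953, 3076 and 102), while the slide row as a block gave 1689 higher, 565 lower and 7 adjusted. Adjusted calls were 10 without a filter, 234 with all 6 arrays above background, 2 by the methods' t-test and 349 with trend and robust eBayes. Leaving out a mouse gave 2100 to 2899 higher, 1200 to 1992 lower and 6 to 31 adjusted. Other zinc finger genes (23 higher, 11 lower) gave 14 and 21 with quantile scaling, 13 and 24 in the deposited table, so the split between higher and lower turns over with the scaling, 6 and 4 with the row as a block, 10 higher with normexp, 17 lower by the t-test and 17 lower with the other eBayes, and 12 to 23 higher and 7 to 13 lower without a mouse; adjusted calls were 2 with all 6 arrays and 1 with the other eBayes. Unlisted run genes past the unadjusted threshold (3) were 1 with normexp, 1 with the row as a block and 2 to 3 without a mouse; corepressors (4) were 1 with the row as a block and 3 to 4 without a mouse; targets (1) were 2 with normexp, 0 with marked spots kept and 1 to 2 without a mouse. Adjusted calls in these 3 lists, and those of zinc finger genes without a mouse, were 0 in each case. The cause of these shifts was not tested.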
